A study of Mus musculus with 4 samples.

Results

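The 8 genes described here are lineage factors and core markers of macrophages and monocytes, namely Csf1r, Cd14, Spi1, Cebpb, Adgre1, Mpeg1, Cd68 and Lyz2. They were found by gene symbol, and all 8 were present among the 16230 genes of the table. The RNA came from cells sorted as CD4 T cells from spleens of Rag-/- mice, which make no mature T or B cells of their own and keep their macrophages and other myeloid cells. Each host had colitis and had been given sorted naive CD4 T cells 8 weeks before. In 2 libraries, labelled CD4creERafl/fl, the donor T cells carried floxed alleles of Esr1 (estrogen receptor α) together with Cre under control of Cd4, a recombinase that acts in T cells and is meant to delete the receptor there. In the other 2, labelled ERafl/fl, the donor cells carried the floxed alleles without Cre. Floxed alleles, Rag-deficient hosts and colitis were thus shared by both groups. The macrophages of the host carry neither the floxed alleles nor the Cre as far as the labels say. Age and sex of the mice were not given in the sources used here, and the labels leave unsaid whether 2 libraries of 1 group stem from different animals, so each p-value speaks only of library-to-library spread, which may be technical.

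Macrophages and monocytes depend on signals through the receptor tyrosine kinase Csf1r, which binds the growth factors Csf1 and Il34. Their gene program is set up by the ETS factor PU.1, encoded by Spi1, acting with C/EBP factors such as Cebpb, while T cell precursors shut Spi1 off as they commit to the T lineage. The spleen is rich in macrophages, and those of its red pulp carry F4/80, the product of Adgre1, and clear aged red cells.

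Levels are given in FPKM, that is, fragments adjusted for transcript length and library size, as deposited. The libraries were shallow. The steps of the FPKM values put the CD4creERafl/fl libraries at about 500000 and 556000 fragments and the ERafl/fl libraries at about 696000 and 663000, and 1 fragment on a transcript of 2000 bases is worth 0.718 to 1.0 FPKM. Esr1, the targeted gene, was listed at 0 and had 1.96 FPKM in the CD4creERafl/fl libraries, against 0.23 FPKM and listed at 0 in the ERafl/fl libraries, so it does not check the labels, and both groups are named by their labels. T cell genes, the check of the labelled cell type, were lower in 1 group. Over 17 T cell genes (of 20 listed), the mean log2(FPKM + 1) was 4.0 and 4.12 in the CD4creERafl/fl libraries and 6.48 and 6.13 in the ERafl/fl libraries. All 17 had non-overlapping lower values in the CD4creERafl/fl libraries, against 25.7% of all tested genes, and 0 passed in limma, where 0.0388% of all genes were called lower. At an unadjusted p under 0.05, 15 of the 17 were lower, against 6.8% of all genes. A fit with voom weights weighs each value by the fragments behind it. In it, 7 of 9 tested T cell genes were called lower at an adjusted p under 0.05, against 0.786% of 6365 genes.

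All 8 macrophage genes were higher in both CD4creERafl/fl libraries than in both ERafl/fl libraries. The same held for 23.2% of the 12896 genes tested. Their log2 fold changes (CD4creERafl/fl minus ERafl/fl, on log2(FPKM + 1)) ran between 2.44 for Cebpb and 4.2 for Adgre1, with a median of 3.41, where the median of all tested genes was -0.07. Ranked by log2 fold change among all tested genes, the 8 stood between place 34 and place 379. None of the 8 passed at an adjusted p under 0.05 over all genes in limma (adjusted p 0.1 to 0.192, higher calls 0.0155% of genes), and all 8 had an unadjusted p under 0.05, which held in the higher direction for 9.1% of genes. That count of 8 was 3 without CD4creERafl/fl 1, 2 without CD4creERafl/fl 2, 7 without ERafl/fl 1 and 8 without ERafl/fl 2. With voom weights on fragments recovered from the FPKM, 6 members could be tested, and 4 were called higher, where 2.26% of 6365 genes were. The 4 were Csf1r, Spi1, Mpeg1 and Lyz2. Adgre1 and Cd14 were not called, with voom log2 fold changes of 5.43 and 4.43 (adjusted p 0.0565 and 0.251). In bulk RNA, more cells of a type and more RNA per cell cannot be told apart.

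**Figure D1:**
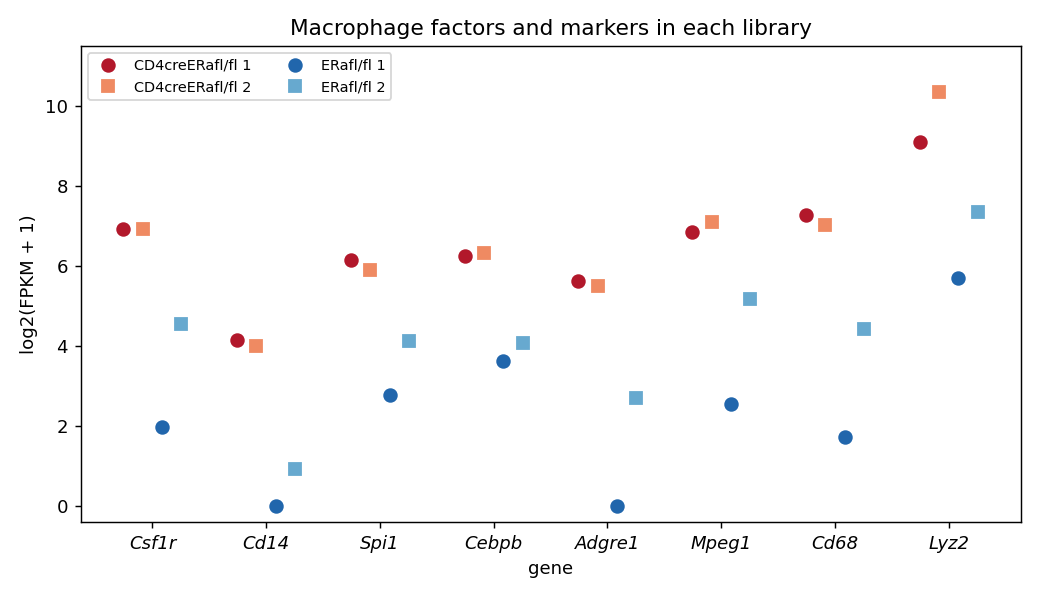
Level of each of the 8 genes in each library, as log2(FPKM + 1), with red and orange points for the 2 CD4creERafl/fl libraries and blue points for the 2 ERafl/fl libraries. For every gene both red and orange points lie above both blue points, and ERafl/fl 2 lies above ERafl/fl 1.

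Csf1r gave the closest agreement of the 8 between the CD4creERafl/fl libraries. Csf1r (NCBI gene 12978, GRCm38 chromosome 18, 61105572 to 61131139, 22 exons) had 121.14 and 120.28 FPKM in the CD4creERafl/fl libraries, against 2.94 and 22.34 FPKM in the ERafl/fl libraries. These values rest on about 234 and 259 fragments, and on 8 and 57. The 2 CD4creERafl/fl libraries differed by less than their 95% counting intervals (106 to 137 and 106 to 136 FPKM), while the ERafl/fl libraries, at 1.28 to 5.85 and 16.8 to 28.8 FPKM, did not overlap each other. The lowest CD4creERafl/fl value was 5.38 times the highest ERafl/fl value. The log2 fold change was 3.67 ± 0.82 (SE, n = 2 each, adjusted p = 0.159 in limma), and with voom weights it was 3.87 ± 0.59 (SE, adjusted p = 0.00701).

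Cd14, the membrane-anchored co-receptor that passes lipopolysaccharide to Tlr4 (NCBI gene 12475, chromosome 18, 36725064 to 36726815, 2 exons), was the lowest of the 8. It had 16.7 and 15.0 FPKM in the CD4creERafl/fl libraries, and in the ERafl/fl libraries it was listed at 0 and had 0.9 FPKM. About 14 fragments in each CD4creERafl/fl library stand against 0 and 1 in the ERafl/fl libraries, where 3 fragments, the floor taken for a count of 0, would be 2.63 FPKM and the 95% counting interval of ERafl/fl 1 reaches 3.23 FPKM. The groups did not overlap, and the counting intervals of ERafl/fl 2 (0.0233 to 5.12 FPKM) and CD4creERafl/fl 2 (8.39 to 25.7 FPKM) did not either. The fitted log2 fold change of 3.61 ± 0.53 (SE, adjusted p = 0.112 in limma) depends on the pseudocount, and with voom weights the adjusted p was 0.251.

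Both lineage transcription factors had smaller fitted log2 fold changes than Csf1r and Cd14, a difference that was not tested. Spi1 (NCBI gene 20375, chromosome 2, 91082374 to 91115759, 5 exons) had 69.66 and 58.89 FPKM in the CD4creERafl/fl libraries, against 5.89 and 16.47 FPKM in the ERafl/fl libraries. Its fragments numbered about 71 and 67, against 8 and 22. The lowest CD4creERafl/fl library lay 3.58 times above the highest ERafl/fl library, with a log2 fold change of 2.57 ± 0.51 (SE, n = 2 each, adjusted p = 0.144 in limma, and 0.0124 with voom weights).

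Cebpb, a basic leucine zipper factor induced in inflammation and made by many cell types besides macrophages (NCBI gene 12608, chromosome 2, 167688915 to 167690432, 1 exon), had 75.5 and 79.7 FPKM in the CD4creERafl/fl libraries. In the ERafl/fl libraries it had 11.42 and 15.97 FPKM. It was the member on which the ERafl/fl libraries differed least, and it had the smallest adjusted p of the 8 in limma (log2 fold change 2.44 ± 0.33, SE, adjusted p = 0.1). Its exon shares 312 bases with Tmem189 on the opposite strand, and no source used here says whether counting took strand into account, so fragments from the 2 genes cannot be told apart there.

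Adgre1 had the highest log2 fold change of the 8. It encodes F4/80, the adhesion receptor of mature mouse macrophages (NCBI gene 13733, chromosome 17, 57358581 to 57483529, 22 exons). It had 48.31 and 43.94 FPKM in the CD4creERafl/fl libraries. The gene was listed at 0 in ERafl/fl 1 and had 5.53 FPKM in ERafl/fl 2, on about 12 fragments. In ERafl/fl 1, the floor of 3 fragments would be 1.33 FPKM, and the 95% counting interval reaches 1.64 FPKM. The lowest CD4creERafl/fl value was 7.95 times that of ERafl/fl 2. The fitted log2 fold change of 4.2 ± 0.89 (SE, adjusted p = 0.15 in limma, and 0.0565 with voom weights) depends on the pseudocount.

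Mpeg1 (NCBI gene 17476, chromosome 19, 12460770 to 12465285, 2 exons) encodes perforin-2, a pore-forming protein that acts on bacteria inside phagocytes. It had 115.13 and 136.92 FPKM in the CD4creERafl/fl libraries, against 4.9 and 35.32 FPKM in the ERafl/fl libraries, on about 249 and 330, and 15 and 101 fragments. Of the 8 genes it was the one for which the gap between the groups was narrowest, with the lowest CD4creERafl/fl value 3.26 times the highest ERafl/fl value. Its log2 fold change was 3.11 ± 0.84 (SE, n = 2 each, adjusted p = 0.192 in limma, and 0.0124 with voom weights). Without ERafl/fl 1 this log2 fold change was 1.8, and without ERafl/fl 2 it was 4.42.

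Cd68 (NCBI gene 12514, chromosome 11, 69664213 to 69666170, 6 exons) encodes macrosialin, a heavily glycosylated lysosomal membrane protein related to the Lamp proteins. It had 155.19 and 129.32 FPKM in the CD4creERafl/fl libraries, against 2.3 and 20.49 FPKM in the ERafl/fl libraries. The lower values correspond to about 2 and 17 fragments, so the level in ERafl/fl 1 is known only to lie between 0.283 and 8.44 FPKM. The log2 fold change was 4.08 ± 0.86 (SE, n = 2 each, adjusted p = 0.15 in limma), and the lowest CD4creERafl/fl value was 6.31 times the highest ERafl/fl value.

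Lyz2 encodes lysozyme M, which digests bacterial cell walls and is made by macrophages, monocytes and neutrophils (NCBI gene 17105, chromosome 10, 117277541 to 117282272, 4 exons). It was the most abundant of the 8 in all 4 libraries, at 548.29 and 1304.26 FPKM in the CD4creERafl/fl libraries and 50.74 and 161.99 FPKM in the ERafl/fl libraries. It ranked 118th and 29th among all genes of the table in the CD4creERafl/fl libraries, and 1355th and 423rd in the ERafl/fl libraries. The groups did not overlap, but the CD4creERafl/fl libraries stood apart from each other, with counting intervals of 493 to 608 and 1220 to 1390 FPKM. The log2 fold change was 3.2 ± 0.66 (SE, n = 2 each, adjusted p = 0.148 in limma, and 0.00701 with voom weights).

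Lyz2 has a close relative beside it on chromosome 10, Lyz1, the lysozyme of intestinal Paneth cells, and fragments can be assigned between them only where the sequences differ. Over 1264 bases their transcripts align at 95% identity or more. Their coding sequences (444 bases without the stop codon, minus strand) differ at 22 positions, and the longest stretch without a difference is 118 bases. Coding bases 37 to 156, which hold 14 of the differences, are shown with the differing bases in capitals, from the GENCODE transcripts of GRCm38.
Lyz2: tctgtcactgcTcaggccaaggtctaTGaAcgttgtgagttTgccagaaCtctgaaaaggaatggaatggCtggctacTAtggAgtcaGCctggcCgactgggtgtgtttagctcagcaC
Lyz1: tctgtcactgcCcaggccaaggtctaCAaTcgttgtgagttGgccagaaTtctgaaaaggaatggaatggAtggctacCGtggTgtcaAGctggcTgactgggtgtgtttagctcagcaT
Lyz1 had 15.55 and 88.88 FPKM in the CD4creERafl/fl libraries, against 4.83 and 13.3 FPKM in the ERafl/fl libraries. Its order over the 4 libraries was that of Lyz2, with CD4creERafl/fl 2 highest and ERafl/fl 1 lowest. How far the 2 values trade fragments was not tested.

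Promoter sequence from RefSeq (GRCm38.p6) was searched for 4 of the 8 genes, Cebpb, Mpeg1, Cd68 and Lyz2. The promoters of Csf1r, Cd14, Spi1 and Adgre1 were not searched, so their motif content was not tested. In the 250 bases before the transcription start, 3 motifs were searched on both strands, the PU.1 core GAGGAA, the C/EBP motif TTGCNNAA and the AP-1 motif TGANTCA. These letters occur in 23.3%, 9.56% and 6.75% of 32851 promoter windows of that length. Among the 4 members, Cd68 held all 3 motifs and the other 3 held none of them. The windows of the 2 members with the highest CD4creERafl/fl levels are printed 5′ to 3′, with motif matches in capitals, to set that difference out.
Cd68, chr11:69666171-69666420, minus strand: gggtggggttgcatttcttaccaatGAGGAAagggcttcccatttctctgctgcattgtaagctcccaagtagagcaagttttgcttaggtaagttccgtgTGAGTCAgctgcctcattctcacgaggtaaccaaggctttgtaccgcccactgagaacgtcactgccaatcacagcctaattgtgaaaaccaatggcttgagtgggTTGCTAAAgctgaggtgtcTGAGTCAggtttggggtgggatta
Lyz2, chr10:117282273-117282522, minus strand: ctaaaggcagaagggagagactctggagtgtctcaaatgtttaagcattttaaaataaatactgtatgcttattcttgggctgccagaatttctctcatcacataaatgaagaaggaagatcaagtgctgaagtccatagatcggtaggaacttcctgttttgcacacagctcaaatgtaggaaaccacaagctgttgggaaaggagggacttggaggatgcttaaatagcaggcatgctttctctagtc
In Cd68 the PU.1 core lies 225 to 220 bases before the start, AP-1 matches lie 149 to 143 and 24 to 18 bases before it, and the C/EBP match lies 43 to 36 bases before it. None of these matches overlaps another. The Cebpb window was 81.6% G and C, against 40.0% in Mpeg1, 41.6% in Lyz2 and 49.2% in Cd68. A match here is a run of letters and does not show binding.

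Set in order of level in FPKM, which is per length, the CD4creERafl/fl libraries gave Lyz2 (926.3 ± 535, SD, n = 2), Cd68 (142.3 ± 18.3), Mpeg1 (126 ± 15.4), Csf1r (120.7 ± 0.608), Cebpb (77.6 ± 2.97), Spi1 (64.28 ± 7.62), Adgre1 (46.12 ± 3.09) and Cd14 (15.85 ± 1.2). Mpeg1 overlapped both Cd68 and Csf1r, and no other neighbours in this order overlapped. In ERafl/fl 1 the order of levels below Lyz2 was Cebpb, Spi1, Mpeg1, Csf1r and Cd68, with Adgre1 and Cd14 listed at 0. In ERafl/fl 2 it was Mpeg1, Csf1r, Cd68, Spi1, Cebpb, Adgre1 and Cd14. Both transcription factors thus stood above Csf1r in ERafl/fl 1 and below it in the other 3 libraries. In ERafl/fl 1 the counting interval of Spi1 (2.44 to 11.1 FPKM) overlapped that of Csf1r, which ended at 5.85 FPKM. That of Cebpb (5.92 to 20 FPKM) only just did not, on fragment numbers that are approximate.

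The members kept their proportions in some libraries and not in others. Relative to Csf1r in the same library, the level of Cebpb was 62.3% and 66.3% in the CD4creERafl/fl libraries, and 388% and 71.5% in the ERafl/fl libraries. The exact 95% counting interval of the value in ERafl/fl 1, 145% to 1090%, lay above those of the other libraries (46.1% to 84%, 50.1% to 87.4% and 38.7% to 128%). Fragment numbers of Cebpb are approximate, and some may belong to Tmem189. For Spi1 the level was 57.5% and 49% of Csf1r in the CD4creERafl/fl libraries and 200% and 73.7% in the ERafl/fl libraries, with intervals of 62.2% to 582% and 42.7% to 122% in the last 2. For Spi1 the interval of ERafl/fl 1 overlapped those of the CD4creERafl/fl libraries (43.6% to 75.6% and 37% to 64.6%).

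Cd68 stood at 128% and 108% of Csf1r in the CD4creERafl/fl libraries and at 78.2% and 91.7% in the ERafl/fl libraries, and all 4 intervals overlapped. Adgre1 stood at 39.9% and 36.5% in the CD4creERafl/fl libraries and at 24.8% in ERafl/fl 2, again with overlapping intervals (30.4% to 51.7%, 28% to 47.1% and 12.3% to 47.4%). Mpeg1 stood at 95% and 114% in the CD4creERafl/fl libraries and at 167% and 158% in the ERafl/fl libraries, with all 4 intervals overlapping, those of the first CD4creERafl/fl (79.2% to 114%) and ERafl/fl 2 (113% to 223%) only just. Lyz2 was the member whose proportion differed between the CD4creERafl/fl libraries, at 453% (384% to 537%) and 1080% (943% to 1250%) of Csf1r. In the ERafl/fl libraries it was 1730% (790% to 4150%) and 725% (531% to 1010%). The neutrophil list, whose cells also make Lyz2, summed to 5779.5 and 7741.4 FPKM in the CD4creERafl/fl libraries and to 2079.1 and 4352 FPKM in the ERafl/fl libraries. All 13 of its genes had a higher mean in the CD4creERafl/fl libraries, against 46.4% of all genes, and 7 were without overlap, against 23.2%. Most of each sum was S100a8 and S100a9. In the CD4creERafl/fl libraries S100a8 had 2175.96 and 2524.73 FPKM, against 607.06 and 1448.2 FPKM in the ERafl/fl libraries. S100a9 had 2504.99 and 3661.55 FPKM, against 914.52 and 2032.22 FPKM. Both were among the 7, as was Ngp. With voom weights 0 of 6 tested genes of the list were called higher, against 2.26% of all genes. At that share 6 genes can easily give 0 calls. In the CD4creERafl/fl libraries its defining gene Ly6g had 6.65 and 5.97 FPKM, on about 3 fragments each. In the ERafl/fl libraries it was listed at 0 and had 1.67 FPKM. Cxcr2, with more fragments, overlapped, at 339.8 and 222.42 FPKM, against 239.85 and 215.89 FPKM. The part of neutrophils in the Lyz2 values was not tested.

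Expressed as a percentage of the CD4creERafl/fl mean, the members differed in how much of the level was present in each ERafl/fl library. ERafl/fl 2 held 28% of it for Mpeg1, 25.6% for Spi1, 20.6% for Cebpb, 18.5% for Csf1r, 17.5% for Lyz2, 14.4% for Cd68, 12% for Adgre1 and 5.68% for Cd14. ERafl/fl 1 held 14.7% for Cebpb, 9.16% for Spi1, 5.48% for Lyz2, 3.89% for Mpeg1, 2.44% for Csf1r and 1.62% for Cd68. In the plot of these percentages, Cebpb and Spi1 had the highest point values in ERafl/fl 1, where Adgre1 and Cd14 were listed at 0. The intervals of Spi1 and Lyz2 overlapped there, and that of Cd14 reached above the Cebpb value.

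**Figure D2:**
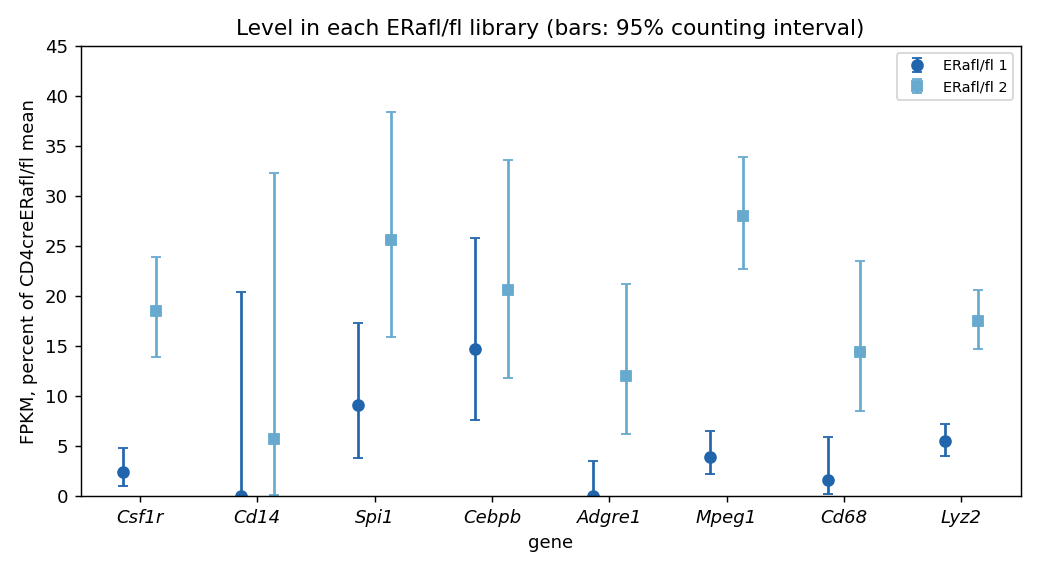
Level of each gene in ERafl/fl 1 (dark circles) and ERafl/fl 2 (light squares) as a percentage of the CD4creERafl/fl mean FPKM, with bars for the 95% Poisson interval of the recovered fragments. The intervals of the 2 libraries do not overlap for Csf1r, Adgre1, Mpeg1, Cd68 and Lyz2, and they overlap for Cd14, Spi1 and Cebpb.

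All 8 genes were higher in ERafl/fl 2 than in ERafl/fl 1, by 0.45 (Cebpb) to 2.71 (Adgre1) on log2(FPKM + 1), with a median of 2.11. Over all tested genes the median of this difference was 0.0, and 50.2% of genes were higher in ERafl/fl 2. Between the CD4creERafl/fl libraries, library 2 minus library 1, the members differed by -0.26 to 1.25 with a median of -0.07, against 0.1 over all genes. The 2 ERafl/fl libraries thus differed on these genes, and each fold change depends on both. Without ERafl/fl 1 the log2 fold changes ran between 1.8 (Mpeg1) and 3.15 (Cd14), and without ERafl/fl 2 between 2.66 (Cebpb) and 5.56 (Adgre1). Other lists separated the same libraries. Higher in ERafl/fl 2 were 19 of 22 macrophage and monocyte surface genes, 18 of 20 effector and lysosomal genes and 8 of 10 dendritic cell genes. For neutrophil genes it was 9 of 13, for NK cell genes 4 of 8 and for T cell genes 1 of 17. Red cell genes differed too. The erythroid list summed to 6499.2 and 5103.3 FPKM in the CD4creERafl/fl libraries, and to 217.75 and 8186.1 FPKM in the ERafl/fl libraries, with all 10 genes higher in ERafl/fl 2 than in ERafl/fl 1 and none at 0 in all libraries. Their part in the member values was not tested.

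The 8 genes and the T cell list stood in opposite order in the groups. The members' mean log2(FPKM + 1) was 6.54 and 6.64 in the CD4creERafl/fl libraries and 2.3 and 4.17 in the ERafl/fl libraries. Their mean exceeded that of the T cell list by 2.55 and 2.52 in the CD4creERafl/fl libraries, and lay below it in the ERafl/fl libraries (difference -4.18 and -1.96). Set against single chains of the T cell receptor complex, the size of this contrast depended on the chain. Csf1r stood at 4.68 and 4.49 times the level of Cd3g in the CD4creERafl/fl libraries, and at 0.0146 and 0.119 times in the ERafl/fl libraries. Against Cd3d it stood at 0.98 and 1.7 times in the CD4creERafl/fl libraries and at 0.0166 and 0.153 times in the ERafl/fl libraries, and against Cd247 at 1.19 and 1.59 times, and at 0.0138 and 0.0942 times. Scaling each library to the T cell list gave log2 fold changes of 4.55 to 6.03 and called all 8 members higher, but it also called 62.5% of all genes higher and moved the median of all genes to 1.82. All 8 members stood above that median. Adgre5 and Csf1, lower on the deposited scale, turned higher on this one, with log2 fold changes of 1.94 and 1.15. The sort was on CD4 T cells, and which cells it left in each library was not measured.

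**Figure D3:**
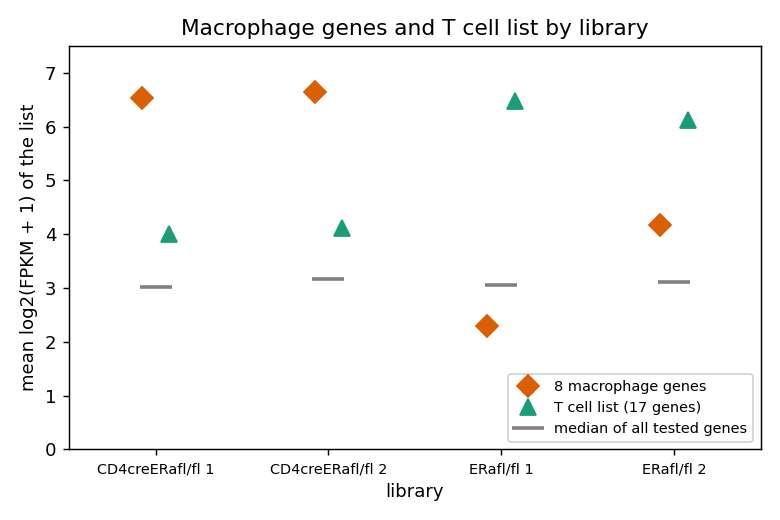
Mean log2(FPKM + 1) of the 8 macrophage genes (diamonds) and of the 17 T cell genes (triangles) in each library, with the median of all tested genes as a grey line. The diamonds lie above the triangles in both CD4creERafl/fl libraries and below them in both ERafl/fl libraries, while the grey line stays between 3.02 and 3.16.

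Relatives of the members by family or domain were not uniformly higher. Of 14 tested, 12 had a higher mean in the CD4creERafl/fl libraries, as did 46.4% of all tested genes. Of these, 10 were higher without overlap, as were 23.2% of all tested genes, and none passed in limma. Their median log2 fold change was 1.66. Among the ETS relatives of Spi1, Spic, the factor of red pulp macrophages, had 97.36 and 118.97 FPKM in the CD4creERafl/fl libraries, against 2.29 and 8.42 FPKM in the ERafl/fl libraries. Its log2 fold change was 4.29 ± 0.56 (SE; limma's adjusted p = 0.0935), and with voom weights it rose (adjusted p = 0.00701). Spib, a factor of B cells and plasmacytoid dendritic cells, had 4.88 and 18.45 FPKM, against 7.84 and 7.46 FPKM, and its groups overlapped.

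The C/EBP relatives were ordered by log2 fold change as Cebpa (2.52 ± 0.44), Cebpd (2.15 ± 0.52), Cebpe (1.79 ± 0.55) and Cebpg (0.64 ± 0.38, SE for each), with adjusted p between 0.129 and 0.477 in limma. Cebpa, which is required for the granulocyte and macrophage precursor, had 12.08 and 10.17 FPKM in the CD4creERafl/fl libraries, against 1.08 and 1.14 FPKM in the ERafl/fl libraries. The lower values are about 2 fragments each. Cebpg, made in most tissues, had 19.77 and 18.68 FPKM, against 15.08 and 9.53 FPKM.

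Adgre4, a myeloid adhesion receptor near to F4/80 in sequence, had 21.58 and 41.32 FPKM in the CD4creERafl/fl libraries and was listed at 0 and had 7.28 FPKM in the ERafl/fl libraries. Adgre5, which encodes CD97 and is made by most leukocytes, T cells included, had 90.66 and 100.52 FPKM, against 122.34 and 110.53 FPKM, a log2 fold change of -0.28 ± 0.26 (SE; limma's adjusted p = 0.634). Of the Lamp relatives of Cd68, Lamp1 had 107.79 and 101.61 FPKM, against 33.28 and 37.59 FPKM, and Lamp2 had 22.41 and 18.07 FPKM, against 4.49 and 13.43 FPKM. Prf1, the perforin of cytotoxic lymphocytes and a relative of Mpeg1, had 6.81 and 2.62 FPKM, against 6.31 and 5.25 FPKM, and overlapped. Of the kinases related to Csf1r, Flt3 had 15.14 and 22.35 FPKM, against listed at 0 and 6.93 FPKM, Kit had 3.81 and 6.5 FPKM, against listed at 0 and 4.59 FPKM, and Pdgfrb was under the filter.

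**Figure D4:**
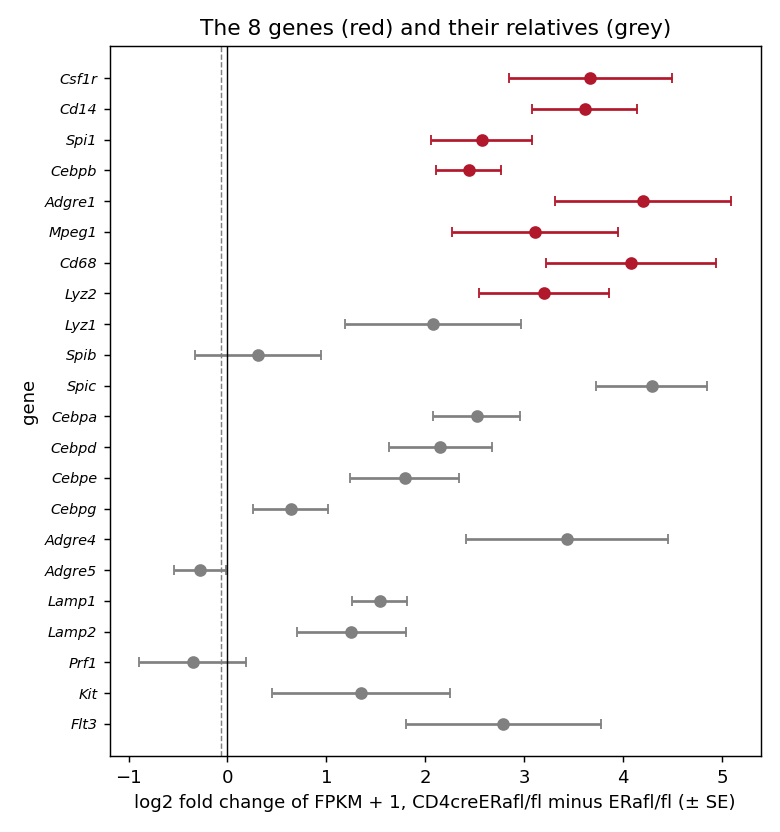
Log2 fold change of FPKM + 1 (CD4creERafl/fl minus ERafl/fl) with its standard error in limma, for the 8 genes (red) and 14 relatives (grey), with the median of all tested genes as a dashed line. All 8 red points lie at 2.44 or above, and the grey points run between -0.35 for Prf1 and 4.29 for Spic.

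In the list of the colony-stimulating factor axis, 7 of 11 tested genes were higher without overlap, where 23.2% of all genes were, and 3 were lower without overlap, a share near the 25.7% of all genes. At an unadjusted p under 0.05, 6 were higher and 0 lower, and 0 passed in limma, with a median log2 fold change of 1.26. Tyrobp, the DAP12 adaptor of myeloid receptors, had 371.49 and 327.23 FPKM in the CD4creERafl/fl libraries, against 12.83 and 75.36 FPKM in the ERafl/fl libraries. Ptpn6, a phosphatase of all blood cells, had 127.66 and 117.08 FPKM, against 43.92 and 51.48 FPKM, and Csf3r, the granulocyte receptor, 110.43 and 194.02 FPKM, against 64.47 and 57.04 FPKM. The ligands of Csf1r, chosen after their values were seen, were low. Csf1 had 2.57 and 2.69 FPKM in the CD4creERafl/fl libraries, against 6.96 and 2.71 FPKM in the ERafl/fl libraries, and Il34 was listed at 0 in all 4.

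Around Cd14, 4 of 12 tested genes of the Tlr4 axis were higher without overlap and 2 lower, near the shares of all genes (23.2% and 25.7%). The median log2 fold change was 0.68, 1 gene was higher at an unadjusted p under 0.05, and 0 passed in limma. Ly86, the MD-1 partner of Cd180, had 89.9 and 89.91 FPKM in the CD4creERafl/fl libraries, against 1.47 and 15.4 FPKM in the ERafl/fl libraries (adjusted p = 0.159 in limma, and it rose at 0.0363 with voom weights). Of the cytoplasmic parts, Irak1 stood at 60.45 and 59.77 FPKM, against 64.35 and 59.71 FPKM, and Tirap stood at 43.76 and 51.72 FPKM, against 70.5 and 55.75 FPKM. Tlr4 itself, chosen after its values were seen, had 2.5 and 2.24 FPKM, against 0.18 and 0.56 FPKM, on at most about 5 fragments in a library.

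Other macrophage genes followed the members more closely. Of 22 surface genes of macrophages and monocytes, 20 were higher without overlap, with a median log2 fold change of 2.92. Of 20 effector and lysosomal genes 18 were, with a median of 2.6, where 23.2% of all genes were. In both lists 0 passed in limma. At an unadjusted p under 0.05, 19 and 17 were higher, against 9.1% of all genes. With voom weights 4 of 12 and 11 of 12 were called higher, against 2.26% of 6365 genes. Of the surface genes, the exceptions were Ccr2 and Ly6c2, markers of inflammatory monocytes chosen after their values were seen. Which cells made the RNA of these genes was not measured. Ccr2 had 12.36 and 31.24 FPKM in the CD4creERafl/fl libraries, against 31.32 and 31.17 FPKM in the ERafl/fl libraries, and Ly6c2 had 21.06 and 24.71 FPKM, against 4.05 and 38.11 FPKM. Of 18 transcription factors listed for macrophages, 11 were higher and 2 lower without overlap, against 23.2% and 25.7% of all genes. Their median was 1.66, and 0 passed in limma. The 18 include Spic and Cebpa, and the 20 effector and lysosomal genes include Lamp1 and Lamp2, all also counted as relatives above. Irf5 had 226.09 and 166.7 FPKM, against 143.11 and 144.62 FPKM.

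Markers of other cells that a spleen can hold moved with the members to differing degrees. Of dendritic cell genes, 5 of 10 were higher without overlap, against 23.2% of all genes, and 1 (Xcr1) was lower, against 25.7%. Their summed level was 2590.5 and 2448.6 FPKM in the CD4creERafl/fl libraries and 127.35 and 749.22 FPKM in the ERafl/fl libraries. Most of it in the CD4creERafl/fl libraries was Cd74, the class II invariant chain that macrophages make too, and without it the sums were 184.91 and 197.52 FPKM, against 89.99 and 113.65 FPKM. Of NK cell genes, 6 of 8 were higher without overlap, against 23.2% of all genes. The other 2, Nkg7 and Eomes, were lower without overlap, a share near the 25.7% of all genes. Nkg7 had 5.05 and 24.97 FPKM, against 49.03 and 47.61 FPKM, and Eomes 16.5 and 17.54 FPKM, against 27.07 and 33.32 FPKM. The sums of the NK cell list were 99.16 and 193.65 FPKM, against 78.34 and 104.42 FPKM. The defining Ncr1, among the 6 higher, was listed at 0 in both ERafl/fl libraries. Of 6 B cell genes in the table, 3 were tested, with sums of 214.16 and 96.43 FPKM, against 51.74 and 80 FPKM. Cd22 carried most of this, and without it the sums were 15.33 and 20.17 FPKM in the CD4creERafl/fl libraries, against 0 and 14.07 FPKM in the ERafl/fl libraries. The defining Ms4a1 was at most 0.87 FPKM in any library. The part of these cells in the member values was not tested.

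The genes whose profile over the 4 libraries was most like the members' mean were Pirb, Axl, Ppm1n, Clec4n and Marcks. Likeness was the Euclidean distance between centred log2(FPKM + 1) values over the 4 libraries, among 2823 genes with a mean of at least 20 FPKM, and it was 0.25, 0.26, 0.34, 0.35 and 0.4 for these 5. The members themselves lay 0.58 (Csf1r) to 1.37 (Cebpb) from their mean. Pirb, an inhibitory receptor for class I molecules, had 95.3 and 89.65 FPKM in the CD4creERafl/fl libraries, against 4.65 and 18.19 FPKM in the ERafl/fl libraries. Axl, a receptor for the uptake of dying cells, had 55.71 and 59.61 FPKM, against 2.41 and 8.71 FPKM.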

How the data were processed

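RNA from 2 CD4creERafl/fl and 2 ERafl/fl libraries was analysed from 1 table. The FPKM values were computed by the authors. Per the submitters' processing notes, the tools were HISAT, Bowtie2 and RSEM on build mm10, with no version or setting stated. RSEM divides fragments shared by similar transcripts by estimate, so a value of 0 can be a failed assignment and is written as listed at 0. Of the gene identifiers, 16183 of 16230 matched GRCm38.p6, whose coordinates are given.

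Genes with a mean of at least 1 FPKM over the 4 libraries (12896) entered a limma fit (limma 3.58.1, R 4.3.3) on log2(FPKM + 1), a scale that understates the change of low genes. Group was the only term, with an empirical Bayes trend, two-sided tests and Benjamini-Hochberg adjustment over all genes, called under 0.05. With 2 against 2 libraries, no exact permutation p under 0.33 exists, so none is given per gene.

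Depth was estimated from genes with 1 transcript over 800 bases (10348), whose low values of FPKM times length fall on steps. The depth chosen was the one that brought them nearest to whole fragments. Within 0.2 of a whole fragment then lay 78.4% to 80.2% of them, which is not a separate check. Transcript lengths came from GENCODE, so fragment numbers are estimates, and for Cebpb and Cd68, with 3 and 2 RefSeq transcripts, they are approximate. Intervals are exact 95% Poisson or binomial and cover counting error only, as does the floor of 3 fragments. Voom weights used the recovered fragments of genes with a mean of at least 5. Shared sequence was sought with blastn 2.17.0 (at least 100 bases at 95% identity).

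The 8 members and the 12 gene lists were chosen with earlier results of these data known. Named were the members, Esr1, relatives of the members, in each other list the 3 genes with the highest mean level, and the 5 nearest profiles. Not every gene so chosen is given a value, and any other gene named was chosen after its values were seen. The procedure was also run on simulated data with a set spread between libraries, which need not match the spread seen here. Alternatives were other pseudocounts, filters, scalings, weights, a replicate block and leaving out each library.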

Additional observations from a re-analysis of the deposited data

How the results depend on the processing

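Over 13 alternative settings, all 102 log2 fold changes of the 8 members that could be computed kept their direction, between 1.8 and 6.03. In 90 of them the gene stayed on the same side of the threshold, and in 12 it newly passed, 8 with scaling to the T cell list and 4 with voom weights on recovered fragments. The count of members called was 0 as reported, 8 with scaling to the T cell list and 4 with voom weights (6 members tested, Cebpb and Cd68 having more than 1 transcript), and 0 to 0 without any 1 library. All members tested were without overlap under each setting.

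Counts over all genes moved more. As reported, 2 genes were called higher and 5 lower. A pseudocount of 0.1, no filter, no trend and the replicate block each gave 0 higher and 0 lower, and so did leaving out any 1 library (0 to 0), with 1813, 2266, 1996, 1888 and 1234 to 2042 genes at an unadjusted p under 0.05. A mean of at least 5 FPKM gave 0 higher, and quantile scaling 1. Voom weights gave 144 higher and 50 lower, and scaling to the T cell list 8295 and 41. The cause was not tested.

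Equal library numbers share only a number: the correlation of the deviations of same-numbered libraries was -0.00161 over 12896 genes. With the replicate block, the count of members called stayed 0 (adjusted p 0.166 for Lyz2). Where 1 library was left alone in its group, it was taken to vary like the other group. Depth limits Cd14, Cd68 and Adgre1 in the ERafl/fl libraries.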
